A study of Mus musculus with 24 samples.

Results

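Mucins are large proteins whose serine- and threonine-rich stretches carry dense O-linked sugar chains. They are either released as gel-forming or soluble glycoproteins, or span the membrane of epithelial cells and form the sugar coat that keeps the tear film on the surface of the eye. The lacrimal gland (LG) makes most of the watery and protein part of that film. The 9 mucin and mucin-like genes described here, of 63862 genes listed per library, were chosen by symbol. They are Mucl1 and Mucl2, which code for small secreted mucin-like proteins, the gel-forming mucin gene Muc5b, and the membrane mucin genes Muc1, Muc4, Muc13, Muc15, Muc16 and Muc20.

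Poly(A) RNA of C57BL/6 mice was sequenced from adult LG (3 libraries), from LG of embryos at E17.5 (3) and E19.5 (3), and from spheres of cultured lacrimal gland stem cells (LGSCs). The spheres were grown from LGs of mice aged 6 to 8 weeks, in Matrigel with serum-free medium holding EGF, FGF10, Wnt3A and the ROCK inhibitor Y-27632, and were taken at passage 2 on culture day 5 (2 libraries), 7 (3), 10 (3) and 14 (3). A passage 10 sphere library of culture day 7 stands on its own with no replicate. The labels give no age or sex for the adult glands and do not say whether replicates were separate animals or cultures, so a p-value measures the spread between these libraries, which may be technical. Levels are FPKM, read fragments scaled to the length of the transcript and to the size of the library, and the 20 passage 2 and tissue libraries held 5747797 to 9206366 reads recovered from those values.

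Of the 9 genes, 6 had a promoter window in the RefSeq table for GRCm38.p6, which runs from 250 bases before to 50 bases after the start of transcription. The windows of 4 of them are shown because the results turn on these genes: Mucl2 was the most abundant of the 9 genes in adult LG, Muc1 rested on 1 adult library, Muc16 was read in spheres and listed at 0 in tissue, and Muc20 differed between stages and culture days. They lie at chr15:103899263-103899562 (minus strand, Mucl2), chr3:89228806-89229105 (plus strand, Muc1), chr9:18674554-18674853 (minus strand, Muc16) and chr16:32797386-32797685 (minus strand, Muc20). Capitals mark matches to 5 searched motifs, on either strand: the TATA box TATAAA, the steroid receptor half-site TGTTCT, the AP-1 site TGANTCA, the E-box CAGCTG and the forkhead site TGTTTAC.
Mucl2: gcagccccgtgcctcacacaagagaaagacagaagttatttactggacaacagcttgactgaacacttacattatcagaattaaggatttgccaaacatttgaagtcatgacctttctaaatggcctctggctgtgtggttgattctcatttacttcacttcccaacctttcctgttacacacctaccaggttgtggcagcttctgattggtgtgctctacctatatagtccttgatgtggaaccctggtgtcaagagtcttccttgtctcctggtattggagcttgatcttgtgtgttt
Muc1: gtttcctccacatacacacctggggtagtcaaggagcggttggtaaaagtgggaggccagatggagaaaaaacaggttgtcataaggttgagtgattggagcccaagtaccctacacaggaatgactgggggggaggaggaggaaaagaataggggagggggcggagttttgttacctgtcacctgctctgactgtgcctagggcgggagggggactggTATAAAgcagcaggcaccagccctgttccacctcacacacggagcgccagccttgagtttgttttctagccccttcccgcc
Muc16: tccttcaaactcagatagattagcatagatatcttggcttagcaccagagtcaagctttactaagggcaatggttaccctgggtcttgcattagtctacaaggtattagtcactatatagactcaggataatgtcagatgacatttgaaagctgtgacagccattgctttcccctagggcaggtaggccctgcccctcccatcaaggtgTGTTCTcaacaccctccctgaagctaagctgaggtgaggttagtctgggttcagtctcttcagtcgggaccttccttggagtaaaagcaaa
Muc20: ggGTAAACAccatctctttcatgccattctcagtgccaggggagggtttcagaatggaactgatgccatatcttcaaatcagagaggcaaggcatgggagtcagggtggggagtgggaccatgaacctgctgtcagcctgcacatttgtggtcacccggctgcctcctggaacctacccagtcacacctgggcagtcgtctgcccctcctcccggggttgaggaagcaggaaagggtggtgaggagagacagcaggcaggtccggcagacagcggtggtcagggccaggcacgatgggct
Mucl2 held none of the 5 in this window. Muc1 held a TATA box at −31 bases from the start, as 13.6% of 32851 windows of this length did somewhere in the window, and so did Muc4 at −36 bases. The half-site in Muc16 (in 19% of windows) lay at −41 bases from the start, and the forkhead match in Muc20 (in 3.65%) lay at −248 bases. The start-proximal window of Muc20 was rich in G and C (59.3%) and that of Mucl2 was not (44%), against a median of 52.7% over all windows.

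Several libraries stood apart, and the changes of Mucl2, Muc1, Muc15 and Muc20 that rest on them are given with and without them. Adult LG replicate 3 held reads of milk protein genes that the other adult libraries hardly held. Csn2, which codes for beta-casein, had 121074 reads there against 7 and 4, and Wap, which codes for whey acidic protein, had 89824 against 2 and 8. All 9 genes of a milk protein list written after this was seen were read there, with 436224 reads in all (5.596% of the library), against 11 to 370 reads in the other 19 libraries. Adult LG replicates 1 and 2 differed in another way: 55.8% and 53.6% of their reads came from 10 genes, and their FPKM had been scaled to a library size 2.38 and 2.23 times smaller than the reads recovered. In adult LG replicate 2 alone the salivary gene Bpifa2 reached 597 FPKM. It was the only 1 of 4 salivary markers above 0 in that library.

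Among the spheres, replicate 2 differed from replicates 1 and 3 on each culture day. The summed FPKM of 5 epithelial markers, of which only 3 were above 0 in each library, was 543 to 715 in the replicate 2 libraries and 1356 to 2645 in the others. Krt13, a keratin of stratified mucosal epithelia, reached 761 FPKM on day 10 and 863 FPKM on day 14 in replicate 2, with at most 0.661 FPKM in the other libraries of these days. Genes that every epithelial cell uses, such as Gapdh, Krt8 and Epcam, were listed at 0 in all 20 libraries, so a value of 0 is given here as listed and not as absence. The acinar water channel gene Aqp5 was at or below 0.568 FPKM in every adult library.

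**Figure D1:**
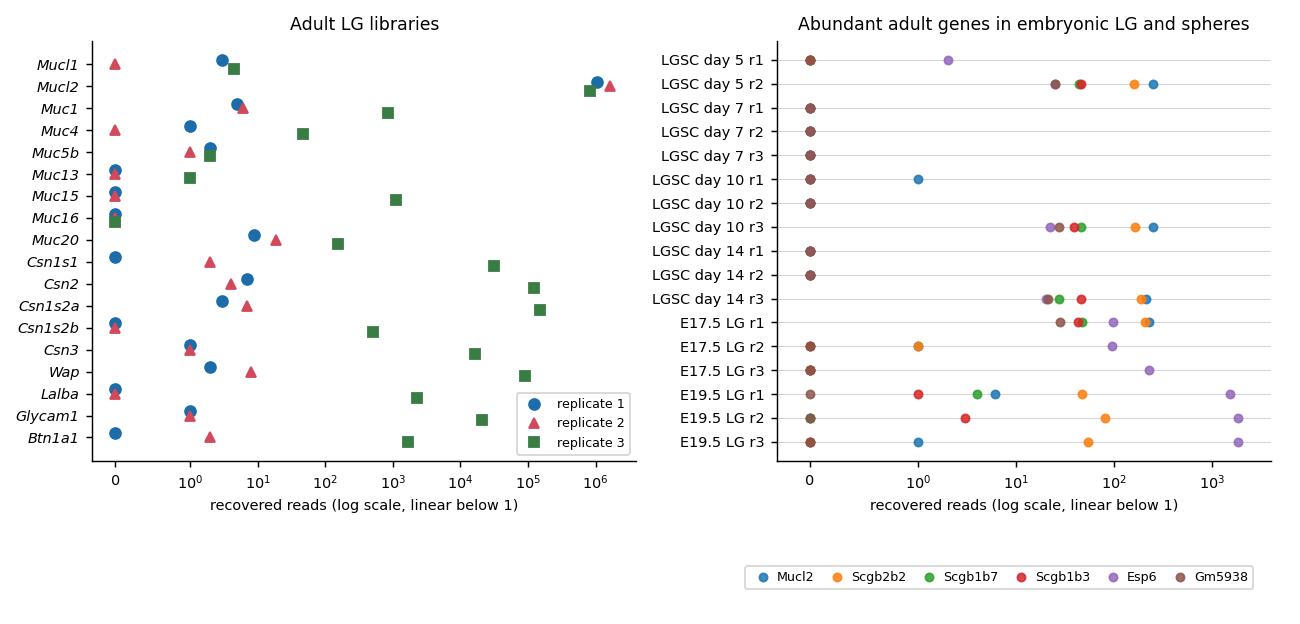
Recovered reads, on log axes that are linear below 1, of the 9 mucin and mucin-like genes and 9 milk protein genes in the 3 adult LG libraries (left; colour and shape give the replicate) and of 6 abundant adult genes in each embryonic LG and passage 2 LGSC library (right; r is the replicate). The milk protein genes, Muc1, Muc15, Muc20 and Muc4 were higher in adult LG replicate 3 than in replicates 1 and 2, and 4 libraries on the right held 212 to 250 reads of Mucl2.

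Mucl2 was by far the most abundant of the 9 genes in adult LG. It reached 679557, 807362 and 171251 FPKM in adult replicates 1, 2 and 3, which were 1036065, 1617725 and 825450 reads. These were 18.03% (95% Wilson interval 17.994 to 18.057%), 22.89% (22.862 to 22.924%) and 10.59% (10.568 to 10.611%) of the reads, intervals that cover counting error only. It ranked second, first and first among all genes of these libraries. At E17.5 it was at 46.0, 0.164 and 0 FPKM, and at E19.5 at 1.09, 0 and 0.202 FPKM. No embryonic or sphere library came near the lowest adult library.

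Against adult LG, Mucl2 was lower at E17.5 by a log2 change of −16.87 (SE 1.36, adjusted p = 2.08e-05, limma) and at E19.5 by −18.35 (adjusted p = 1.56e-05). These fits compared log2(FPKM + 1), which understates the change of a gene near 0. Of the 9 genes, 4 (Mucl2, Muc1, Muc15 and Muc20) passed the filter on low values, and 2 of these 4, Mucl2 and Muc20, were called at each stage. Muc20 passed the filter in tissue only through adult LG, where it was higher, so its calls are no support beyond its values. Over all genes tested, 54% were called at E17.5 (29.1% higher and 24.9% lower than adult LG) and 54.2% at E19.5 (30.3% higher and 23.9% lower). Both comparisons share the adult libraries. Spheres were lower as well, on day 7, where Mucl2 was listed at 0 in all 3 libraries (adjusted p = 2.05e-05, limma), and on day 14, with a log2 change of −17.00 (adjusted p = 3.68e-05). Of all genes, 23.2% and 21.2% were called lower on these days. Without adult LG replicate 3 the log2 changes of Mucl2 were −17.57 at E17.5, −19.06 at E19.5 and −17.71 on day 14, and Mucl2 was called in each, as it was on day 7 (adjusted p = 5.37e-05). Outside adult LG, only E17.5 replicate 1 (in tissue) and day 14 replicate 3 (in spheres) took Mucl2 past the filter on low values. With or without adult LG replicate 3, its E19.5 and day 7 calls are thus no support beyond its values. In bulk RNA, fewer cells that make a transcript and less of it per cell cannot be told apart.

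Within the spheres, Mucl2 stood at 0 and 58.3 FPKM on day 5, at 0 in all libraries on day 7, at 0.179, 0 and 45.7 FPKM on day 10, and at 0, 0 and 40.4 FPKM on day 14. The 3 high sphere values were 250, 250 and 212 reads, and E17.5 LG replicate 1 held 226, while no other sphere library held more than 1 read and no other embryonic library more than 6. The same 4 libraries held 159 to 206 reads of Scgb2b2, 39 to 46 of Scgb1b3, 27 to 47 of Scgb1b7 and 21 to 28 of Gm5938, which are among the most abundant genes of adult LG. Scgb1b7, Scgb1b3 and Gm5938 were listed at 0 in all other sphere libraries. Other embryonic libraries held up to 80 reads of Scgb2b2. Of Esp6, also abundant in adult LG, the 4 libraries held 20 to 96 reads. Other sphere libraries held at most 2 reads of Esp6, but other embryonic libraries held up to 1844. The part of adult RNA in the Mucl2 values of these 4 libraries was not tested. Without them, the log2 change of Mucl2 was −18.68 at E17.5 (adjusted p = 4.61e-06, limma) and −18.79 on day 14 (adjusted p = 6.31e-06). In these fits Mucl2 passed the filter on low values only through adult LG, so its calls there are no support beyond its values.

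The genes whose levels were most like those of Mucl2 over the 20 libraries, by Pearson r of log2(FPKM + 1) among 13690 genes, were Scgb1b7 (r = 0.995) and Scgb1b3 (r = 0.984), both secretoglobin genes, and Gm5938 (r = 0.983). These r values describe the libraries, which fall into adult and other samples, and carry no p.

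Mucl1 lies next to Mucl2 on chromosome 15, with 140385 bases between them, and was read in adult LG only in traces. It was at 1.57 FPKM in adult replicate 1, at 0 in replicate 2 and at 0.745 FPKM in replicate 3, and was listed at 0 in all other libraries. The longest stretch that the annotated transcripts of Mucl1 and Mucl2 share is 50 bases, and no window of the read length of 150 bases occurs in both. Mucl1 fell under the mean of 0.5 FPKM that the test required.

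Muc5b, a gel-forming mucin of mucous glands and airways, was low throughout. It reached 0.115, 0.0966 and 0.102 FPKM at E19.5, above all adult libraries (0.0554, 0.0211 and 0.0175 FPKM) and all E17.5 libraries (0.00859, 0.0347 and 0.0501 FPKM). The E19.5 values rest on 40 reads in all, and an exact two-sided permutation test over libraries gave p = 0.1 for either comparison, the smallest that 3 against 3 allows. Of all genes tested, 33% were higher at E19.5 than in adult LG with no overlap of libraries, and 19.8% were higher at E19.5 than at E17.5. In the spheres Muc5b ranged from 0 to 0.0300 FPKM, and its day 7 libraries all lay below the adult ones, as 28% of genes tested did (exact two-sided permutation p = 0.1, the smallest allowed).

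Muc1, a membrane mucin of most glandular epithelia whose tail takes part in signalling, was at 0.883 and 0.807 FPKM in adult replicates 1 and 2 but at 47.2 FPKM in adult replicate 3, the library with milk protein reads. In reads these were 5, 6 and 845. At E17.5 it was at 1.972, 1.902 and 2.504 FPKM (mean 2.13 ± 0.329, SD, n = 3) and at E19.5 at 3.75, 3.70 and 3.97 FPKM (3.81 ± 0.141, n = 3). The embryonic libraries lay between the low and the high adult values, and each E19.5 library lay above each E17.5 library, as 19.8% of genes tested did.

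With all adult libraries, Muc1 did not pass the test at E17.5 (log2 change −0.81, adjusted p = 0.553, limma) or E19.5 (−0.19, adjusted p = 0.899). Without adult replicate 3 it was higher than in adult LG by 0.76 at E17.5 (SE 0.12, adjusted p = 9.89e-04) and by 1.38 at the later stage (SE 0.12, adjusted p = 3.88e-05), where 63.4% and 63.6% of all genes were called. Between E19.5 and E17.5 the log2 change was 0.63, with an adjusted p of 0.881 in the fit of all tissue libraries (1.74% of genes called) and of 0.0170 without adult replicate 3 (9.43% called). The gene most like Muc1 over the 20 libraries was Csn1s1, which codes for an alpha-casein (r = 0.923), followed by Pnliprp1 (0.894) and Trf (0.887). Whether RNA of a milk-producing tissue sets the Muc1 value of that library was not tested.

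Muc15, a sialylated membrane mucin, showed the same adult library apart. It was listed at 0 in adult replicates 1 and 2 and was at 40.7 FPKM (1108 reads) in replicate 3. E17.5 libraries were at 0.864, 0.611 and 0.805 FPKM and E19.5 libraries at 0.961, 1.25 and 1.18 FPKM, which did not overlap (19.8% of genes tested were higher at E19.5 in this way). With all adult libraries its log2 change was −0.98 for E17.5 against adult LG (adjusted p = 0.530, limma) and −0.71 for E19.5 (adjusted p = 0.656). Without adult replicate 3 the remaining adult libraries are both listed at 0, and Muc15 was called higher in embryonic LG, with an adjusted p of 8.59e-04 for E17.5 and of 1.83e-04 for E19.5. It then passed the filter on low values only through embryonic LG, so these calls are no support beyond its values.

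Muc20, a membrane mucin known to bind the receptor Met, was at 0.926, 1.49 and 5.08 FPKM in adult LG, at 0.0638, 0 and 0.279 FPKM at E17.5, and at 0.540, 0.304 and 0.411 FPKM at E19.5. All adult libraries lay above all embryonic libraries, as 27.2% of genes did for E17.5 and 25.8% for E19.5, and replicate 3 was again the highest (156 reads, against 9 and 19). Muc20 was lower at E17.5 by a log2 change of −1.47 (SE 0.37, adjusted p = 0.00966, limma) and at E19.5 by −1.12 (SE 0.37, adjusted p = 0.0321). Without adult replicate 3 the changes were −0.98 (adjusted p = 0.00159) and −0.63 (adjusted p = 0.0139). The E19.5 call was lost when any 1 E19.5 library was left out (adjusted p = 0.0625, 0.0874 and 0.0776 without replicates 1, 2 and 3), with only these 2 groups (0.0712), with all 20 libraries in 1 fit (0.0868) and with no filter (0.0594). With libraries scaled to their recovered reads, which lowers the FPKM of adult replicates 1 and 2, they were −1.11 (adjusted p = 0.0729) and −0.78 (adjusted p = 0.195). Over all genes that scaling moved the log2 changes up by a median of 0.482 at E17.5 and 0.418 at E19.5, and took the share of calls that were higher in embryonic LG from 53.8 to 77.1% and from 55.9 to 76.4%.

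Muc4, a membrane mucin of the ocular surface and airways, overlaps Muc20 on the opposite strand of chromosome 16. The genes share 627 exon bases, 15.6% of the exon bases of Muc20 and 5.33% of those of Muc4. The sources used here do not say that reads were assigned by strand, so reads of the shared stretch cannot be told apart. Muc4 was at 0.0353, 0 and 0.524 FPKM in adult LG and at or below 0.0319 FPKM in every embryonic library. Its 47 reads in adult replicate 3 stood against 1 and 0 in the other adult libraries.

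Muc13, a membrane mucin best known from the gut, was listed at 0 in adult replicates 1 and 2 and had 1 read in replicate 3. At E17.5 it was at 0.169, 0.171 and 0.288 FPKM, and at E19.5 at 0.376, 0.293 and 0.587 FPKM. The 3 groups did not overlap, with E19.5 above E17.5 and E17.5 above adult LG. An exact two-sided permutation test gave p = 0.1, its smallest value, for each pair. Of all genes tested, 32.3% were higher at E17.5 than in adult LG with no overlap. For E19.5 the shares were 33% against adult LG and 19.8% against E17.5. The counts behind these Muc13 levels were 16 reads at E17.5 and 32 at E19.5. Muc16, the largest membrane mucin of the ocular surface, was listed at 0 in all 9 tissue libraries.

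**Figure D2:**
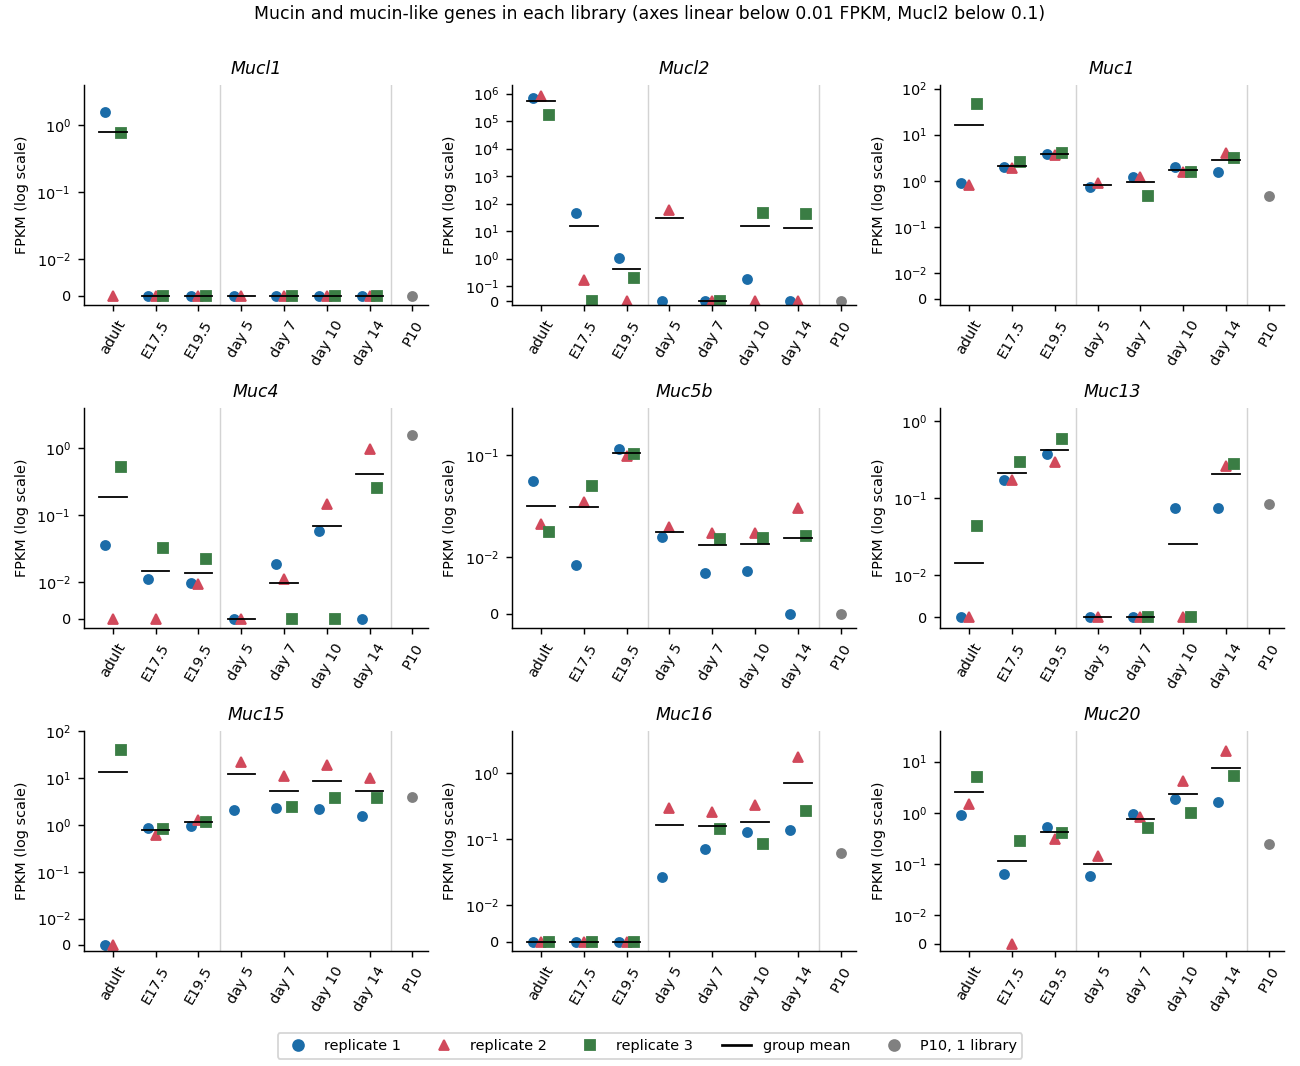
FPKM of each of the 9 genes in each library, on log axes that are linear near 0, with 1 point per library (shape and colour give the replicate), a bar at the mean of each group and the single passage 10 library in grey. Mucl2 was at 171251 FPKM or more in adult LG and at most 58.3 FPKM elsewhere, Muc16 was listed at 0 in all tissue libraries, and Muc1 and Muc15 were each high in 1 adult library.

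In the spheres, Muc1 and Muc20 rose over the culture days. Muc1 was at 0.752 and 0.880 FPKM on day 5 (mean 0.816 ± 0.0905, SD, n = 2), at 1.20, 1.20 and 0.476 FPKM on day 7 (0.957 ± 0.417, n = 3), at 2.02, 1.55 and 1.53 FPKM on day 10 (1.70 ± 0.280, n = 3) and at 1.58, 3.93 and 3.18 FPKM on day 14 (2.90 ± 1.20, n = 3). Neighbouring days overlapped except day 7 and day 10. Muc20 was at 0.0584 and 0.146 FPKM on day 5 (0.102 ± 0.0623, n = 2), at 0.966, 0.826 and 0.499 FPKM on day 7 (0.763 ± 0.239, n = 3), at 1.82, 4.26 and 0.976 FPKM on day 10 (2.35 ± 1.70, n = 3) and at 1.64, 15.8 and 5.14 FPKM on day 14 (7.54 ± 7.39, n = 3). Day 14 lay above day 7 in all libraries of either gene, as it did for 8.26% of genes tested, and replicate 2 held the highest Muc20 value on days 10 and 14.

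The slope of log2(FPKM + 1) was 0.125 per day for Muc1 (SE 0.027, adjusted p = 0.0402, limma) and 0.279 per day for Muc20 (SE 0.059, adjusted p = 0.0409). Of all genes tested, 0.648% were called with a rising slope. With the replicate number as a block, since same-numbered spheres deviated together, the slopes were 0.130 (adjusted p = 0.0259) and 0.290 (adjusted p = 0.0128), where 5.02% of genes were called in either direction against 2.14% without the block. Neither gene was called from days 7, 10 and 14 alone (adjusted p = 0.252 for Muc1 and 0.289 for Muc20), without the replicate 2 libraries (0.150 and 0.0773), or without the 3 sphere libraries with Mucl2 reads (0.385 and 0.350). The replicate 2 libraries were those with Krt13 on days 10 and 14, and other marker lists moved with the culture day. The summed FPKM of 6 leukocyte markers was 25.2 to 81.9 on day 5, 22.3 to 117 on day 7, 43.7 to 197 on day 10 and 101 to 372 on day 14, and 2 to 5 of the 6 were above 0 in each library. The highest sum, in day 14 replicate 3, came from only 2 of the 6. That of 3 acinar markers was 0 on day 5, 0.0371 to 0.129 on day 7, 0.304 to 0.804 on day 10 and 1.27 to 3.21 on day 14, and at most 2 of the 3 were above 0. The part of these markers and of Krt13 in the slopes was not tested. Between day 14 and day 7 the log2 changes were 0.97 for Muc1 (adjusted p = 0.445) and 1.89 for Muc20 (adjusted p = 0.464). Of 15744 genes, limma called none (0%) between these days, 9.89% had an unadjusted p under 0.05, and limma-voom with the block called 118 (0.974% of those it tested), none of the 9 genes here among them. Muc20 is also on a list of genes that the study drew from these libraries for these days, so its direction there is no independent evidence.

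Over the 20 libraries the genes most like Muc20 were Fth1, which codes for the ferritin heavy chain (r = 0.862), Abcc4, which codes for an efflux transporter (0.850), and Bcl6, which codes for a transcriptional repressor (0.843).

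Muc15 set replicate 2 apart on every day. It was at 21.9 FPKM on day 5, 11.3 on day 7, 19.5002 on day 10 and 10.3 on day 14 in replicate 2. In the other libraries it was at 2.11 FPKM on day 5, 2.30 and 2.38 on day 7, 2.22 and 3.82 on day 10, and 1.57 and 3.84 on day 14. Replicate 2 was 3.79 to 10.4 times the mean of the other libraries of its day, and Muc15 had no slope that passed the test (−0.044 per day, adjusted p = 0.848, limma). Against adult LG without replicate 3, where Muc15 was listed at 0, it was called higher on day 7 (adjusted p = 0.0365) and day 14 (adjusted p = 0.0366). It then passed the filter on low values only through the spheres, so these calls are no support beyond its values. With all adult libraries the log2 changes were 0.57 (adjusted p = 0.766) and 0.58 (adjusted p = 0.767). The genes most like Muc15 were Atp2c2, a secretory pathway calcium pump gene (r = 0.915), Sbsn (0.877) and Abhd5 (0.866).

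Muc16 was read in every sphere library. It was at 0.0268 and 0.297 FPKM on day 5, at 0.0697, 0.257 and 0.140 FPKM on day 7, at 0.129, 0.330 and 0.0834 FPKM on day 10, and at 0.136, 1.71 and 0.260 FPKM on day 14. Replicate 2 was highest on each day, and the day 14 value of replicate 2 held 401 reads. Day 7 and day 14 lay above the 0 of adult LG in all libraries (exact two-sided permutation p = 0.1 each, the smallest allowed), where 23.9% and 22.3% of genes tested lay higher with no overlap. Muc4 was listed at 0 on day 5, was at or below 0.0184 FPKM on day 7, reached 0.0577, 0.144 and 0 FPKM on day 10 and stood at 0, 0.975 and 0.256 FPKM on day 14. Muc13 was listed at 0 in all libraries of days 5 and 7, had 2 reads in 1 library of day 10 and was at 0.0739, 0.259 and 0.277 FPKM on day 14. For Muc13, day 14 (2, 7 and 7 reads) lay above day 7 in all libraries, as 8.26% of genes tested did. An exact two-sided permutation test gave p = 0.1, the smallest allowed.

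**Figure D3:**
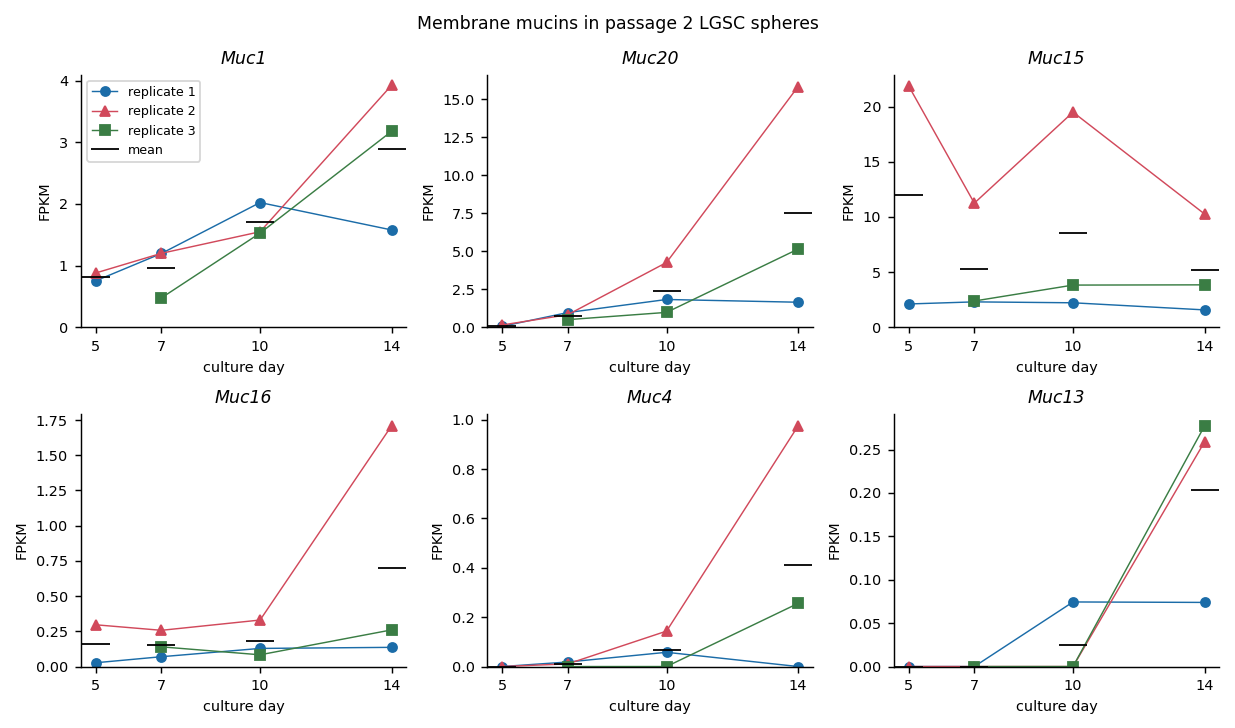
FPKM of 6 membrane mucin genes in each passage 2 LGSC library against the culture day, with lines joining libraries of the same replicate number and short bars at the mean of each day. Muc1 and Muc20 were higher on day 14 than on day 7 in all libraries, and replicate 2 held the highest Muc15 and Muc16 values on every day.

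Between spheres of day 7 and adult LG the log2 change was −1.51 for Muc1 (adjusted p = 0.310, limma) and −0.81 for Muc20 (adjusted p = 0.352), and neither passed the test. On day 14 the changes were −0.54 (adjusted p = 0.730) and 1.08 (adjusted p = 0.227). Without adult replicate 3 those of Muc20 were −0.32 on day 7 (adjusted p = 0.719) and 1.57 on day 14 (adjusted p = 0.0976). In the same fit Muc1 was higher on day 14 by 1.03 (SE 0.31, adjusted p = 0.0323) and its log2 change on day 7 was 0.06 (adjusted p = 0.886). The shares of all genes called against adult LG were 39.7% on day 7 and 36.4% on day 14, and 45.7% and 44.6% without adult replicate 3. Of the calls made with all adult libraries, 41.5% and 41.8% were higher in spheres, and 70.5% and 73.7% after scaling to recovered reads, which moved the log2 changes up by a median of 0.558 and 0.59. In the passage 10 library, which has no replicate, Muc15 was at 4.04 FPKM, Muc4 at 1.58, Muc1 at 0.466, Muc20 at 0.251, Muc13 at 0.0830 and Muc16 at 0.0622 FPKM, and Mucl1, Mucl2 and Muc5b were listed at 0.

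The first sugar of a mucin chain is added by polypeptide GalNAc transferases. At E17.5, of the 14 such genes tested, 8 were higher and 4 lower than in adult LG, beside 29.1% and 24.9% of all genes, with a median log2 change of 0.54 against 0.05 over all genes. Galnt16 was at 9.94 ± 1.63 FPKM against 0.538 ± 0.296 in adult LG (SD, n = 3 each; log2 change 2.84, adjusted p = 6.95e-06, limma), and Galnt1 at 73.3 ± 5.18 against 12.4 ± 6.21. Galnt5 was higher by 2.12. Galnt15, Galnt3 and Galnt18 were lower, by log2 changes of −3.20, −2.53 and −1.39. At E19.5, 6 were higher and 3 lower, beside 30.3% and 23.9% of all genes, and Galnt17 was among the higher ones (log2 change 2.34) and Galnt10 among the lower ones (−1.14). Galnt5 and Galnt17 passed the filter on low values only through embryonic LG, so their calls are no support beyond their values. Between E19.5 and E17.5, where 1.11% of all genes were called higher, Galnt12 alone of this list was called (0.69, adjusted p = 0.0465, limma), and it was not called with the replicate block (0.0959) or after scaling to recovered reads (0.505).

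Genes of this family were called in the spheres as well. On day 7, of 10 tested, 3 were higher and 5 lower, beside 16.5% and 23.2% of all genes, and on day 14, 3 were higher and 4 lower, beside 15.2% and 21.2%. Galnt6 was at 161, 163 and 134 FPKM on day 7 and at 1.82, 2.53 and 2.61 FPKM in adult LG (log2 change 5.54, SE 0.37, adjusted p = 1.62e-05, limma). No sphere library was below 71.6 FPKM for Galnt6, and no embryonic LG library was above 4.22 FPKM. Galnt15 was at most 0.0380 FPKM in the spheres and at 8.85, 14.5 and 28.9 FPKM in adult LG, and Galnt3 had a log2 change of −1.40 on day 7 (adjusted p = 0.0137), which was −0.50 after scaling to recovered reads (adjusted p = 0.0746).

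The chain is then extended and capped. Of 10 genes tested at E17.5, 3 were higher and 2 lower than in adult LG, close to the 29.1% and 24.9% of all genes: St6galnac4 (log2 change 1.73) and St6galnac2 (−2.26), which code for sialyltransferases, Fut2 (1.21), which codes for a fucosyltransferase, Gcnt1 (1.02), which codes for the core 2 branching enzyme, and C1galt1c1 (−1.01), which codes for the chaperone of the core 1 enzyme and was not called after scaling to recovered reads (−0.16). At E19.5, 2 were higher and 2 lower, beside 30.3% and 23.9% of all genes. St6galnac2 is listed under 2 identifiers, of which the first is given. Fut2 was at 0.239 ± 0.264 FPKM in adult LG, reached 1.83 ± 0.187 FPKM at E17.5 and 4.18 ± 0.302 FPKM at E19.5 (SD, n = 3 each). It was called between each pair of stages, though between E19.5 and E17.5 not with the replicate block (adjusted p = 0.115, limma) or after scaling to recovered reads (0.0726). Fut2 passed the filter on low values only through embryonic LG, so its calls against adult LG are no support beyond its values. In the spheres, 1 gene of 11 was higher and 2 were lower on both days, beside 16.5% and 23.2% of all genes on day 7 and 15.2% and 21.2% on day 14. The 2 lower genes, St6galnac2 and C1galt1c1, were called on neither day after scaling to recovered reads. C1galt1, the core 1 enzyme gene, was at 21.2, 23.8 and 27.3 FPKM on day 7 and at 2.11, 2.17 and 9.69 FPKM in adult LG (log2 change 2.40, adjusted p = 0.00279, limma), while its chaperone gene C1galt1c1 had a log2 change of −1.15 (adjusted p = 0.0198) that was −0.20 after scaling to recovered reads (adjusted p = 0.464).

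Among 21 genes of mucous secretory cells, 10 were tested at E17.5 and 3 were higher and 4 lower than in adult LG, beside 29.1% and 24.9% of all genes. Agr2, which codes for a protein disulfide isomerase that helps mucins fold, was at 2975, 2389 and 398 FPKM in adult LG, at 2.39, 2.09 and 4.26 FPKM at E17.5, at 14.5, 16.4 and 19.8 FPKM at E19.5 and at most 2.78 FPKM in the spheres. Its log2 changes against adult LG were −8.54 at E17.5 (SE 0.67, adjusted p = 1.78e-05, limma), −6.32 at E19.5 and −9.89 on day 7. Fcgbp, which codes for a protein of mucus gels, was at 48.7, 47.8 and 135 FPKM in adult LG and at most 0.207 FPKM in embryonic LG and spheres. It passed the filter on low values only through adult LG, so its calls are no support beyond its values. Creb3l1, which codes for a secretory pathway transcription factor, was at 229, 212 and 60.4 FPKM in adult LG and between 99.4 and 121 FPKM in embryonic LG (neither stage called), but at 0.691 to 11.6 FPKM in the spheres, with a log2 change of −5.21 on day 7 (adjusted p = 8.91e-04).

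Other genes of this list were higher in embryonic LG. Agr3, a relative of Agr2, was listed at 0 in adult LG and stood at 3.46 ± 1.57 FPKM at E17.5 and 3.73 ± 0.473 at E19.5 (SD, n = 3 each). Creb3l4 was at 34.3 ± 1.57 FPKM at E19.5, 7.54 ± 0.873 at E17.5 and 5.916 ± 3.997 in adult LG, and was called between E19.5 and each other stage, though between E19.5 and E17.5 not with the replicate block (adjusted p = 0.0622, limma) or after scaling to recovered reads (0.146). At E19.5, 5 of the 10 genes tested were higher and 4 lower than in adult LG, beside 30.3% and 23.9% of all genes. In the spheres none of 10 was higher, beside 16.5% and 15.2% of all genes. On day 7, 5 were lower, beside 23.2% of all genes, and on day 14, 4 were lower, beside 21.2%. Between day 14 and day 7, and over the slope, limma called no gene of the 5 lists.

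Of 14 matched partner genes of membrane mucins, 9 were tested. At E17.5, 4 were higher and 2 lower than in adult LG, beside 29.1% and 24.9% of all genes, and at E19.5, 3 were higher and 3 lower, beside 30.3% and 23.9%. Ctnnb1, which codes for beta-catenin, was at 143 ± 9.14 FPKM at E17.5 and 71.0 ± 6.77 in adult LG, and the sheddase gene Adam17 was higher by a log2 change of 1.14 at E17.5 and 1.36 at E19.5. Slc9a3r1, which codes for a scaffold under the apical membrane, was lower by −2.45 and −2.04. Against adult LG the spheres had 5 of 9 higher on day 7 and 6 of 9 on day 14, with none lower. Of all genes, 16.5% and 15.2% were higher and 23.2% and 21.2% lower on these days. The median log2 change of the list was 0.92 on day 7 and 1.26 on day 14 against −0.03 and −0.02 over all genes.

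The largest differences were in Msn and Lgals3. Msn, which codes for moesin, a link between membrane proteins and the actin skeleton, was at 348, 380 and 489 FPKM on day 7 against 19.2, 26.1 and 48.1 FPKM in adult LG (log2 change 3.75, adjusted p = 1.32e-04, limma). Lgals3, which codes for galectin-3, a lectin that binds mucin sugars, was at 19.9, 20.0 and 30.1 FPKM on day 7, at 3.12, 1.02 and 1.69 FPKM in adult LG, and at or below 0.718 FPKM in embryonic LG. It was called in opposite directions, lower than adult LG at E17.5 (log2 change −1.43) and higher on day 7 (3.08). In tissue Lgals3 passed the filter on low values only through adult LG, so its E17.5 call is no support beyond its values.

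Of 15 matched other mucin-type genes, 6 were tested in tissue and 5 in the fit of spheres and adult LG. Mcam, also known as Muc18, was higher than in adult LG at E17.5 (145 ± 14.8 against 24.3 ± 12.6 FPKM, SD, n = 3 each; log2 change 2.63, adjusted p = 1.16e-04, limma) and on day 7 (3.63). Podxl and Cd164, which code for sialomucins, were lower at E17.5 (−2.23 and −1.02) and on day 7 (−3.14 and −1.04). After scaling to recovered reads Cd164 was called in neither (−0.15 and −0.07) and Podxl not at E17.5 (−1.42). Emcn, an endothelial sialomucin gene, was listed at 0 on days 7 and 14 and did not pass the test between E17.5 and adult LG (0.21, adjusted p = 0.642). Smgc, a salivary gland mucin-type gene, was listed at 0 in adult LG and at E17.5 and was at 1.66 ± 0.319 FPKM at E19.5. Without adult LG replicate 3, each list gene named here as called against adult LG was still called in the same direction, with log2 changes of, for example, −9.45 at E17.5 for Agr2, −5.57 at E17.5 for Fcgbp and 2.99 on day 7 for C1galt1. The number of genes called against adult LG went from 5 to 9 core and capping enzymes and from 3 to 5 other mucin-type genes at E17.5, from 4 to 8 core and capping enzymes at E19.5, and from 5 to 8 membrane mucin partners on day 7. Other list counts against adult LG moved less. Over all genes the share called went from 54 to 63.4% at E17.5, from 54.2 to 63.6% at E19.5 and from 39.7 to 45.7% on day 7. Marker genes of other cells moved with these comparisons. The summed FPKM of fibroblast markers was 4185 to 5107 in embryonic LG, 142 to 276 in adult LG and at most 1.40 in the spheres. That of leukocyte markers was 6.41 to 16.4 in embryonic LG and 55.1 to 279.5 in adult LG. That of basal and myoepithelial markers was 139 to 297 at E17.5, 1008 to 1094 at E19.5, 106 to 525 in adult LG and 13.7 to 185 in the spheres. The part of these markers in the differences was not tested.

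**Figure D4:**
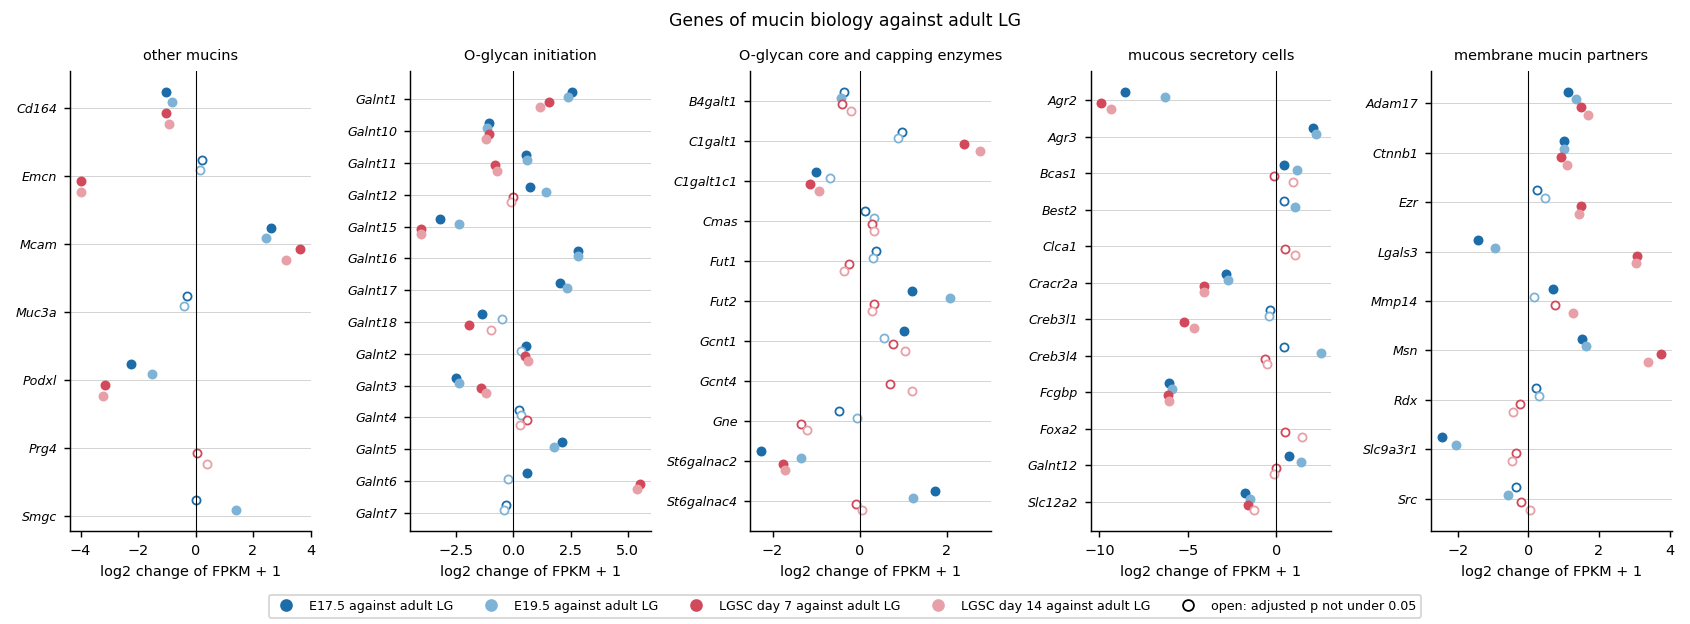
Log2 change of FPKM + 1 against adult LG for each tested gene of 5 lists of mucin biology, at E17.5, E19.5, LGSC day 7 and LGSC day 14, with filled points for an adjusted p under 0.05 (limma) and open points otherwise. Agr2 and Fcgbp were lower in all 4 comparisons and Galnt6 was higher in spheres. For Agr3, Smgc and Emcn, listed at 0 in 1 group compared, the plotted size depends on the 1 FPKM added before the log.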

How the data were processed

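RNA of C57BL/6 mouse LG and LGSC spheres was sequenced as 150-base pairs after poly(A) selection. Per the submitters' processing notes, CASAVA 1.8, HISAT2 2.0.5 and featureCounts 1.5.0-p3 were used on build NCBIM37. The authors deposited 1 table per library with 63862 genes (52636 Ensembl identifiers and 11226 assembled loci), whose values were read as FPKM. Passage 10 came with another gene list, of 52747 genes. Of 24 samples, LGSC day 5 replicate 3 and passages 6 and 20 were not analysed here.

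Groups came from the sample labels. Members, lists and tests were chosen with earlier results of these data known. The main test was limma 3.58.1 (R 4.3.3) with a trend, on log2(FPKM + 1), for genes whose mean over the fitted libraries reached 0.5 FPKM, with Benjamini-Hochberg adjustment over all genes tested and a threshold of 0.05. The 9 tissue libraries formed 1 fit, days 7 and 14 another, the 4 culture days another (slope per day) and adult LG with days 7 and 14 the last. Members under the filter got an exact permutation test over libraries. Text names all 9 members, up to 3 called genes per list, comparison and direction with the largest change, and the 3 genes most like each member with a mean of at least 1 FPKM.

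Reads were recovered from the steps of the FPKM values and GENCODE M21 exon lengths (52489 genes). Below 1000 reads, 96.8 to 98.2% of values were whole within 0.01 after the step of 1340 genes was re-estimated from their own values. The length behind the Mucl2 values was 632 bases, not the annotated 1046. The Mucl1 step could not be re-estimated. Gene positions are those of GENCODE M21 (GRCm38), not of the authors' build. The members lie at chr15:103751919-103755469 (Mucl1), chr15:103895855-103899312 (Mucl2), chr3:89229057-89233381 (Muc1), chr16:32735886-32782391 (Muc4), chr7:141839070-141873084 (Muc5b), chr16:33794037-33819934 (Muc13), chr2:110721340-110739527 (Muc15), chr9:18495455-18674530 (Muc16) and chr16:32777419-32797435 (Muc20), and all 9 are protein-coding genes.

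Deviations of same-numbered libraries from their group means correlated in culture (mean r 0.457, lowest 0.26, of 15 pairs), but not in tissue (mean −0.00945). Of 11 culture libraries, 8 were closest to one of their own number. The labels do not say that same-numbered spheres were paired, and the part of the replicate 2 libraries in this correlation was not tested. No 2 libraries were identical. Alternatives were another pseudocount (0.1), no filter, other scalings, limma-voom on recovered reads, a replicate block, other sets of libraries and leaving out each library. DESeq2 was not run, since the values are no counts. Scripts were tested on simulated data.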

Additional observations from a re-analysis of the deposited data

Results flagged for a closer look

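Muc4 was at 1.58 FPKM in the passage 10 library (442 reads), above every passage 2 library of day 7, where it was at most 0.0184 FPKM, and above every other library. Muc13 was at 0.0830 FPKM in the passage 10 library (6 reads) and was listed at 0 in all passage 2 libraries of day 7. Both were looked at again because the passage 10 library enters no comparison. It is a single library from another gene list, so neither difference was tested. Groups of 3 libraries were not put through a systematic search for outlying samples. The libraries that stood apart were noticed in the values, and some of the fits without them were chosen after seeing the data.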

How the results depend on the processing

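Of 528 log2 changes of the 9 genes recomputed under an alternative, 460 kept direction and side of the threshold, 32 lost a call, 4 gained one and 32 changed sign. The number of the 9 genes called was 1 in place of 2 after scaling to recovered reads, at E17.5 and at E19.5 against adult LG. At E19.5 against adult LG it was also 1 with all 20 libraries in 1 fit and with only the 2 groups compared. Between E19.5 and E17.5 it was 1 in place of 0 with only the 2 groups compared. For the slope it was 0 in place of 2 with no filter, from days 7, 10 and 14 only, and, in alternatives chosen after seeing the data, without the libraries with reads of adult genes and without the replicate 2 libraries. For day 14 against adult LG it was 2 in place of 1 with no filter. Leaving out 1 library at a time, these counts ranged from 2 to 4 (E17.5 against adult LG), 1 to 4 (E19.5 against adult LG), 0 to 1 (E19.5 against E17.5), 0 to 2 (slope), 1 to 2 (day 7 against adult LG) and 1 to 3 (day 14 against adult LG). The cause was not tested.

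Changes of sign were found for changes that did not pass the test. With a pseudocount of 0.1, Muc15 was at 0.20 at E17.5 and 0.72 at E19.5, and Muc1 at 0.17 at E19.5, against adult LG. Muc1 at E19.5 was at 0.064 when scaled to recovered reads. Without the libraries with reads of adult genes, Mucl2 was at 0.33 between E19.5 and E17.5 and the Muc15 slope at 0.059, which was 0.019 without the replicate 2 libraries. The Mucl2 slope was −0.016 on the log2 of the day. Leaving out 1 library at a time, Muc1 ranged from −1.61 to 0.76 at E17.5, −0.99 to 1.38 at E19.5, −2.31 to 0.061 on day 7 and −1.34 to 1.03 on day 14 against adult LG. Muc15 ranged from −1.88 to 0.81, −1.60 to 1.09, −0.33 to 2.36 and −0.31 to 2.38 in the same comparisons, from −0.54 to 0.64 between days 14 and 7, and from −0.10 to 0.039 in its slope. Mucl2 ranged from −2.44 to 0.33 between E19.5 and E17.5 and from −0.17 to 0.24 in its slope. The changes of Muc1 and Muc15 against adult LG that were called came without adult LG replicate 3.

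The replicate block was a check on the shared deviations of same-numbered libraries. It took the Mucl2 slope to −0.047, and limma-voom with the block took Muc15 on day 7 against adult LG to −0.031. Under the block, 783 genes in place of 334 were called over the slope and 100 in place of 323 between E19.5 and E17.5, where same-numbered libraries did not deviate together. Between E19.5 and E17.5 the block left 0 genes called in place of 1 GalNAc transferase, 2 core and capping enzymes and 3 mucous secretory genes. Limma-voom with the block gave 0, 0 and 1 there, 1 mucous secretory gene between days 14 and 7, 1 GalNAc transferase and 2 mucous secretory genes over the slope, 5 core and capping enzymes on day 7 and 7 mucous secretory genes on day 14 against adult LG.

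Counts called in the 5 lists moved by over 1.5 times as follows. Scaling to recovered reads gave 1 (E17.5) and 2 (E19.5) other mucins and, on day 7, 5 GalNAc transferases and 8 membrane mucin partners against adult LG, and 0 GalNAc transferases, core enzymes and mucous secretory genes between E19.5 and E17.5. There, a pseudocount of 0.1 gave 0, 1 and 1 of these lists, no filter 0 GalNAc transferases, 1 core enzyme and 2 other mucins, median-of-ratios scaling 0 GalNAc transferases, limma-voom 2 GalNAc transferases and 1 core enzyme, all 20 libraries 0 other mucins and 0 core enzymes, only the 2 groups 4 GalNAc transferases and 6 mucous secretory genes, and no libraries with adult genes 0 of the first 3 lists. Without the latter, 3 core enzymes were called at E17.5 and 4 GalNAc transferases on day 14, as with only the 2 groups. Core enzymes came to 7 at E19.5 with no filter and to 5 on days 7 and 14 with all 20 libraries. Without the replicate 2 libraries, 3 mucous secretory genes had a slope. Leaving out 1 library at a time, the counts of other mucins, GalNAc transferases, core enzymes, mucous secretory genes and partners ranged from 3 to 5, 10 to 13, 3 to 9, 6 to 9 and 5 to 7 at E17.5, from 2 to 6, 8 to 11, 3 to 8, 9 to 10 and 6 to 7 at E19.5, from 4 to 4, 4 to 8, 2 to 4, 4 to 5 and 3 to 8 on day 7, and from 3 to 4, 4 to 7, 2 to 3, 4 to 5 and 5 to 8 on day 14, against adult LG. Between E19.5 and E17.5 they ranged from 0 to 1, 0 to 3, 0 to 2, 0 to 4 and 0 to 0, and over the slope mucous secretory genes from 0 to 1.

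Over all genes, scaling to recovered reads took the share of calls that were higher from 64.1 to 49.1% between E19.5 and E17.5 and from 30.2 to 41% over the slope. The 323 genes called between E19.5 and E17.5 became 1736 without adult LG replicate 3, 2144 with only the 2 groups, 511 with all 20 libraries, 169 when scaled, 162 with a pseudocount of 0.1 and 50 without the libraries with adult genes. The slope called 82 genes with no filter, 1 without the libraries with adult genes and 0 from days 7, 10 and 14. With all 20 libraries, 50 genes were called between days 14 and 7. At 5747797 to 9206366 reads per library, the levels of Muc5b and Muc13 rest on at most 15 and 14 reads.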
